A study of Homo sapiens with 10 samples.

Results

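The insulin-like growth factor (IGF) binding proteins IGFBP1 to IGFBP7 and the receptor IGF1R were described across 7 human ovarian cancer cell lines. Members were all transcripts whose annotated gene name is one of these 8 genes. They numbered 18 transcripts of the 99493 in the deposited tables, and 8 of 57110 genes. None of the 8 genes was joined with a neighbour under a shared identifier, and all 18 transcripts had the same coordinates in GENCODE 29.

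IGF1 and IGF2 are secreted peptides that bind IGF1R, a cell surface receptor tyrosine kinase that signals through IRS adaptors. In body fluids most IGF is held by the high-affinity binding proteins IGFBP1 to IGFBP6, which can keep the ligand from the receptor or deliver it when proteases cut the carrier. IGFBP7 binds IGF only weakly and is known as a secreted protein of vessel walls and matrix. Ovarian carcinoma cells are known to make several of these carriers themselves.

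The lines were COV362, COV504, OVKATE, OVMANA, OVTOKO, SK-OV-3 and IGROV-1, with no treatment or genetic change given in the labels. RNA was sequenced on nanopore instruments, which read single molecules through protein pores. The first 6 lines had 1 library each on the PromethION instrument. IGROV-1 had 2 PromethION libraries and 2 libraries on the smaller MinION, and nothing in the labels says whether they came from separate cultures, so p-values measure the spread between these libraries, which may be technical. The series served to benchmark software that quantifies long-read transcripts.

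The 10 libraries held 1729782 to 3666224 counts. Levels are CPM, the count scaled to a fixed library total, and are not divided by transcript length. A count of 0 allows up to 3 counts, which is 0.818 to 1.73 CPM depending on the library, and this covers counting error only. Mitochondrial ribosomal RNA took 9.13% and 10.9% of the counts of the IGROV-1 PromethION libraries and 1.01% to 3.31% in the other 8. Leaving out mitochondrial genes changed no call among the members. The 6 epithelial markers examined (EPCAM, KRT7, KRT8, KRT18, KRT19 and CDH1) summed to 404 to 9650 CPM. In all 4 IGROV-1 libraries KRT7 and CDH1 were at 0, although PAX8, a Mullerian marker, was at 84.1 to 340 CPM in every library. Of the 4 Mullerian markers PAX8, WT1, MUC16 and MSLN, only 1 was at 10 CPM or more in OVTOKO, SK-OV-3 and each IGROV-1 library. In OVMANA, OVKATE, COV362 and COV504, 3 or 4 of them were. WT1 had a count in 2 libraries only, and the medians of MUC16 and MSLN were 0.584 and 1.15 CPM. The 4 together gave 86.1 to 617 CPM. The 6 fibroblast markers (COL1A1, COL1A2, COL3A1, DCN, LUM and PDGFRB) summed to 435 CPM at most, in COV362, where COL1A2 alone gave 429 CPM. SK-OV-3 followed with 364 CPM and COV504 with 120 CPM, and the other libraries lay between 0.578 and 30.2 CPM. In their highest library COL1A1 had 219 CPM, LUM 52.7 and COL3A1 33.9, while PDGFRB had 0.859 and DCN 0.578. In SK-OV-3, 4 of the 6 fibroblast markers were at 10 CPM or more. The 3 endothelial markers (PECAM1, CDH5 and VWF) summed to 0.534 to 25.8 CPM and the 3 leukocyte markers (PTPRC, CD3E and LYZ) to 0 to 12.4 CPM. The part of these markers in the levels of the binding proteins was not tested.

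The carrier with the most counts differed between lines, though some lines shared it. A reservation is that in bulk RNA fewer cells with a transcript and less RNA per cell cannot be told apart. IGFBP7 was at 2002 to 2792 CPM in OVMANA, OVTOKO and SK-OV-3. Among the counts of the 7 binding proteins, IGFBP2 had the largest share in OVKATE and COV362 and IGFBP4 in COV504. In IGROV-1 IGFBP3 had the largest share, followed by IGFBP2. All 8 genes had at least 1 count in some library, but only IGFBP3 and IGFBP7 had one in all 10.

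**Figure D1:**
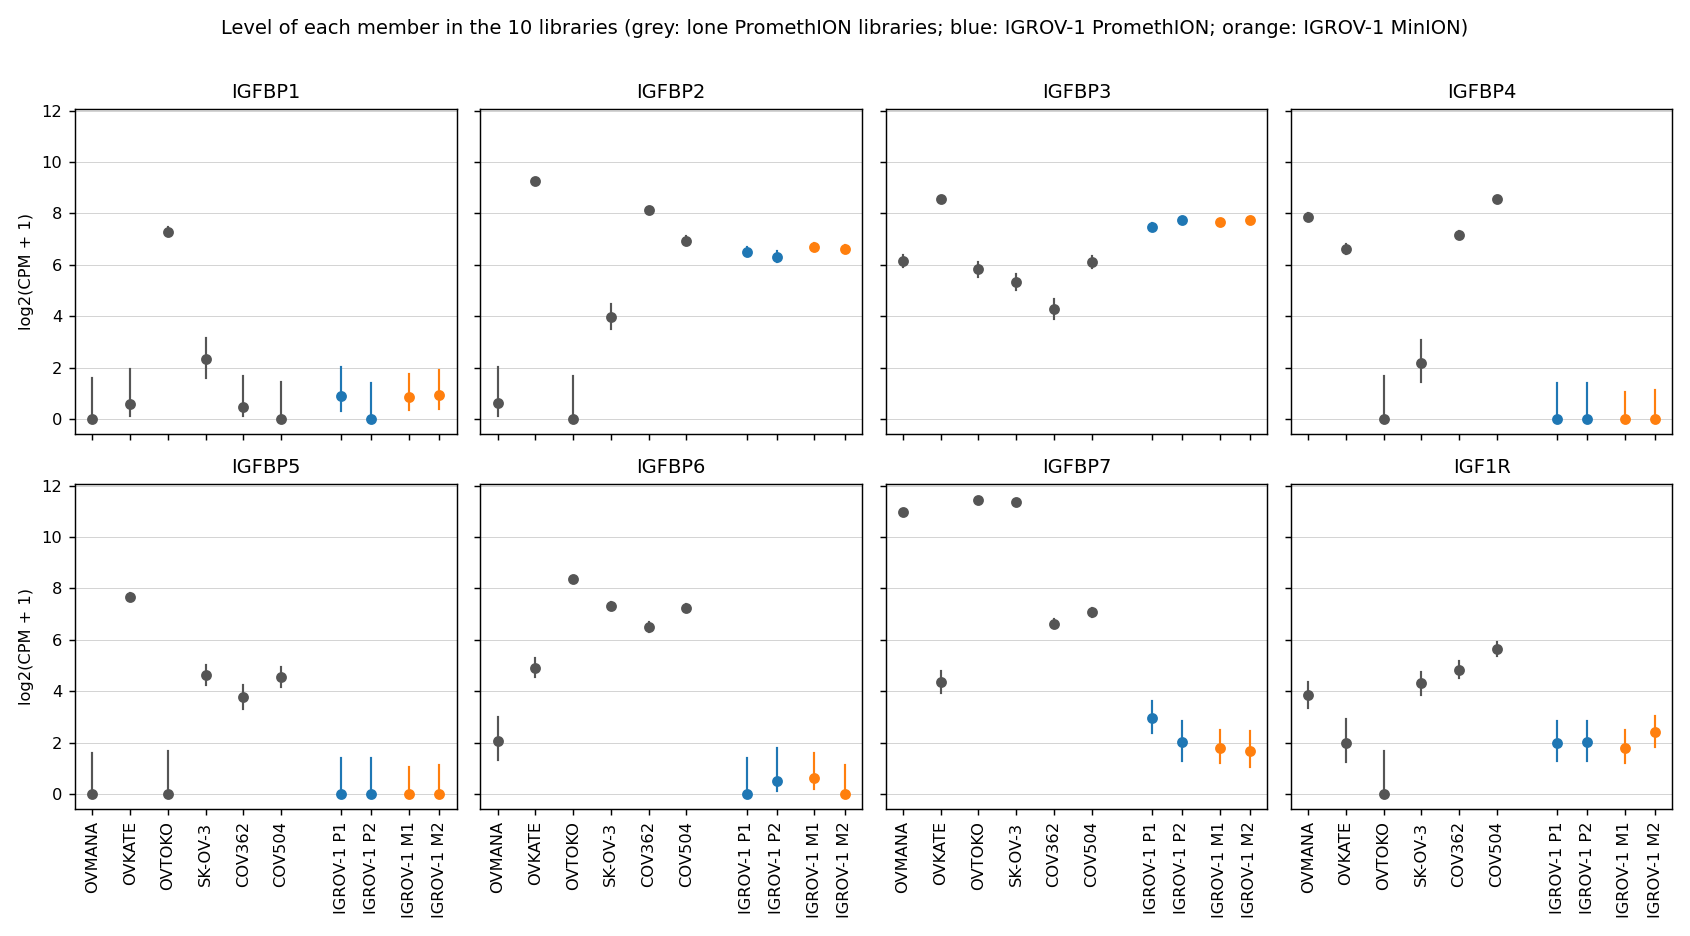
Level of each of the 8 genes in the 10 libraries, as log2(CPM + 1), with 95% Wilson intervals that cover counting error only. Grey points are lines with 1 PromethION library, blue points the IGROV-1 PromethION libraries (P1, P2) and orange points the IGROV-1 MinION libraries (M1, M2). IGFBP4 and IGFBP5 sit at 0 in all 4 IGROV-1 libraries, while IGFBP7 lies at 2002 CPM or more in 3 other lines.

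Each of the 6 lines was compared with IGROV-1 PromethION with edgeR's quasi-likelihood test over all genes, and a gene was called at an adjusted p under 0.05. The spread came only from the 4 IGROV-1 libraries, which left 2 residual degrees of freedom. Lone libraries were assumed to vary to the same extent. The 6 comparisons share the IGROV-1 libraries and are not independent of one another. Since lines differed at so many genes, the share of all 13030 genes called is given with each count. In OVMANA 4 of the 8 members were called higher and 2 lower, against 18.9% and 16.5% of all genes. In OVKATE 6 were higher and 0 lower, against 26.8% and 22.4%. In OVTOKO 3 were higher and 3 lower, against 18.2% and 15.9%. SK-OV-3 had 6 higher and 2 lower, against 22.0% and 19.8%. COV362 had 6 higher and 1 lower, against 23.7% and 18.8%. COV504 had 5 higher and 1 lower, against 24.0% and 19.6%. All 8 members passed the filter on low counts, but IGFBP1, IGFBP4, IGFBP5 and IGFBP6, with 0 to 3 counts in each IGROV-1 library, passed it only through other lines, where they are high. IGF1R, with 7 to 14 counts in each IGROV-1 library, also passed the filter only through other lines. Among the 4 IGROV-1 libraries alone 2 members, IGFBP2 and IGFBP3, passed it. The counts and medians over the members are therefore a description and support nothing. The same goes for the adjusted p of IGFBP1, IGFBP4, IGFBP5, IGFBP6 and IGF1R between lines given below. With genes at 0 in 1 of the groups set to their bound against 3 counts, the median log2 change of the members that could be given a value was 2.56 (7 genes) for OVKATE, 2.67 (8) for SK-OV-3, 2.94 (6) for OVMANA, 3.82 (6) for OVTOKO, 4.29 (7) for COV362 and 4.66 (7) for COV504. The fitted medians over all 8 genes were 2.11, 4.40, 1.10, 0.00, 3.78 and 4.30 in this order of lines. The median over all genes tested lay between -0.01 and 0.04.

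**Figure D2:**
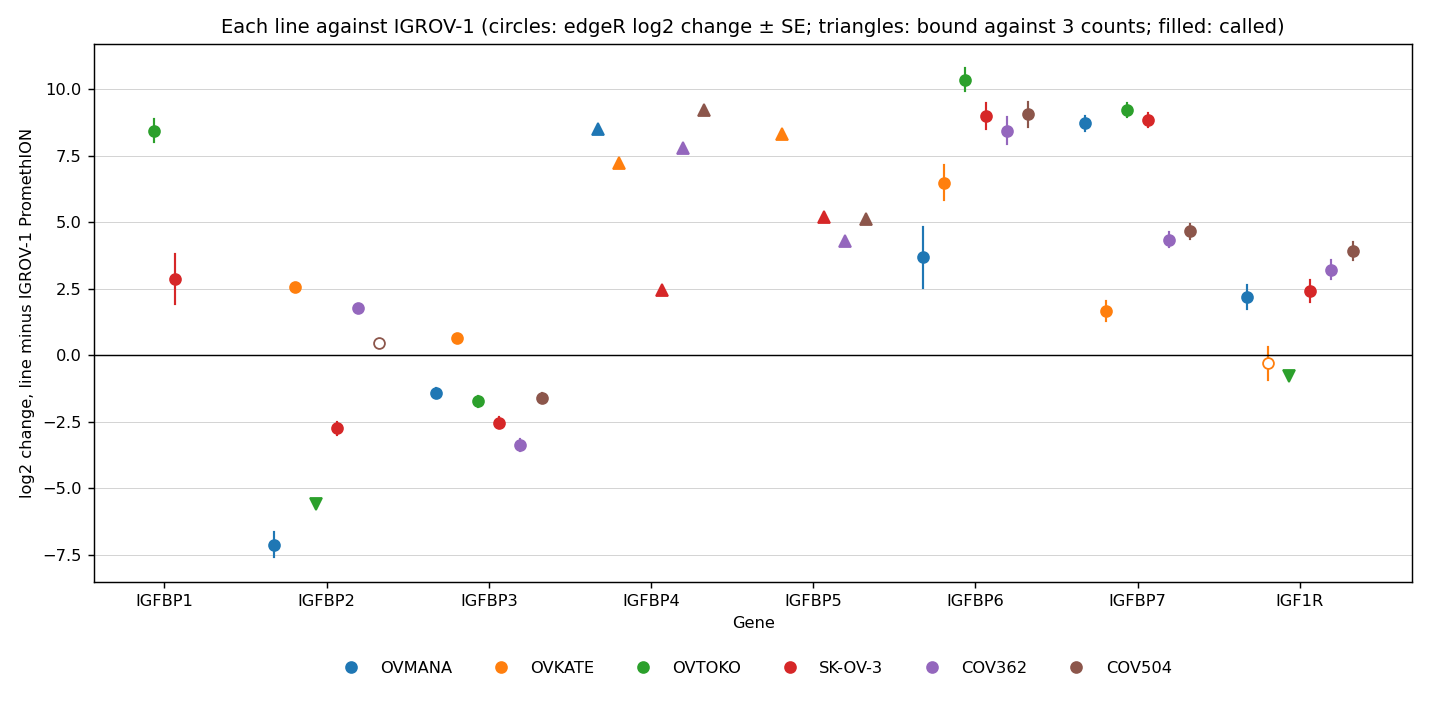
Change of each gene in each line relative to IGROV-1 PromethION. Circles are edgeR log2 changes with bars of 1 standard error, triangles are bounds against 3 counts where a group was at 0, and filled symbols are called at an adjusted p under 0.05. IGFBP3 is the gene that lies lower in 5 of 6 lines, and IGFBP7 and IGFBP6 lie higher in all 6.

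IGFBP3 is the main IGF carrier of serum, where it forms a complex with IGF and the acid-labile subunit. Its gene (ENSG00000146674) lies on the minus strand of chr7:45912245-45921274 (GRCh38). It had 377 CPM in OVKATE, 70.0 in OVMANA, 68.5 in COV504, 55.5 in OVTOKO, 39.5 in SK-OV-3 and 18.4 in COV362. IGROV-1 had 179 and 213 CPM on PromethION and 201 and 213 CPM on MinION. OVKATE lay above all 4 IGROV-1 libraries and the other 5 lines below them. Relative to IGROV-1 PromethION (196 ± 24.4 CPM, SD, n = 2), COV362 was 10.7 times lower (log2 change -3.37, SE 0.23, edgeR adjusted p = 2e-05) and SK-OV-3 was 4.97 times lower (log2 change -2.54, SE 0.21, edgeR adjusted p = 5e-05). The log2 changes of OVTOKO, COV504 and OVMANA were -1.74, -1.60 and -1.43, all called. The rise in OVKATE was small, at a log2 change of 0.64 (SE 0.16, edgeR adjusted p = 0.011). It was not called without IGROV-1 PromethION replicate 1 (edgeR adjusted p = 0.064), without IGROV-1 MinION replicate 1 (edgeR adjusted p = 0.051) or with DESeq2 (adjusted p = 0.20).

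IGFBP3 was also the member whose counts were spread over several transcript forms. ENST00000275521 has an undivided first exon. ENST00000613132 and ENST00000381086 each lack a stretch inside it, of 63 and 291 nt, and their 3′ ends lie 347 and 353 nt beyond that of ENST00000275521. Both stretches are in the coding sequence and have a length divisible by 3. The shorter one, chr7:45921030-45921092, lies within the longer one, chr7:45920841-45921131. The longer stretch is shown because it holds both, from GENCODE 29 on GRCh38 in the direction of the gene. The capitals mark the shorter one.
IGFBP3 stretch absent from ENST00000381086: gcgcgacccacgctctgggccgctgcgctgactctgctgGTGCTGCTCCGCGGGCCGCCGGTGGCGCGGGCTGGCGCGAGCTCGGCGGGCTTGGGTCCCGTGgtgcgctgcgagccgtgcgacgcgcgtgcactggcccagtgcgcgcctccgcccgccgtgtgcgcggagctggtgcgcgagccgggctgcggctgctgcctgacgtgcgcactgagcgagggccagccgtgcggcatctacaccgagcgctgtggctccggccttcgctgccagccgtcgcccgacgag
The shorter stretch begins with GT and ends with TG, and the longer one begins with GC and ends with AG, so neither has the usual GT and AG ends of an intron. At the shorter junction 6 nt, and at the longer one 9 nt, are repeated, so the boundary can be placed at more than 1 position with the same spliced sequence. Of their bases, 82.5% and 77.3% are G or C.

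Nearly all estimated IGFBP3 counts were given to the 2 forms that lack a stretch and also end further 3′. ENST00000613132 held 47.5% to 77.7% of them in the 10 libraries and ENST00000381086 held 16.5% to 48.8%. The undivided form held 0% to 8.05%, with 0 of 47 counts in COV362, which allows a share of up to 6.38%. In OVKATE, with 762 counts, the shares of ENST00000613132 and ENST00000381086 were 47.5% and 45.9%. SK-OV-3, with 78 counts, had 73.3% and 24.0%. The IGROV-1 libraries were themselves far apart. ENST00000381086 held 22.7% and 30.3% on PromethION and 16.5% and 35.1% on MinION, and the MinION intervals (14.0% to 19.4%, and 31.7% to 38.8%) did not overlap. These are estimates, since a read that does not reach the first exon cannot tell the forms apart there. The undivided form also differs from the other 2 in its 3′ end, so its share does not show the first exon alone. The annotated 5′ ends differ too. ENST00000613132 begins at chr7:45921140, its first coding base, while ENST00000381086 begins at 45921272 and ENST00000275521 at 45921274. The balance of the forms therefore does not show the absent stretches alone. The part of the 3′ and 5′ ends in the shares was not tested.

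**Figure D3:**
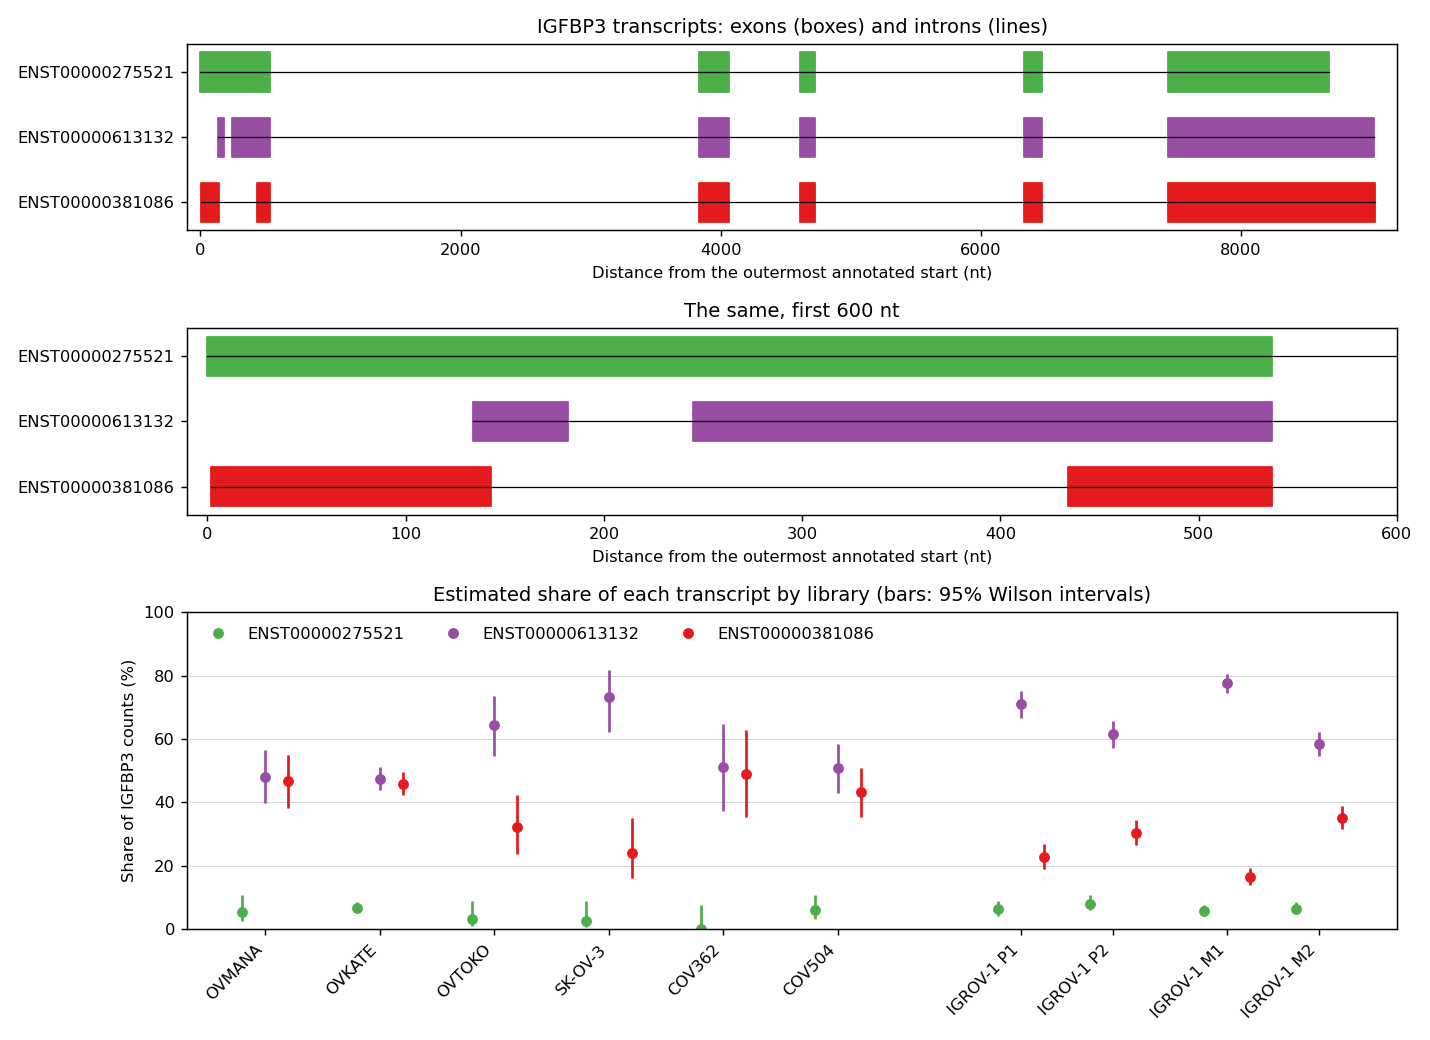
The 3 IGFBP3 transcripts that reached 1 count, drawn by distance in nt from the outermost annotated start (top, and the first 600 nt enlarged), and their share of IGFBP3 counts in each library in percent with 95% Wilson intervals (bottom). The undivided form (green) stays at or under 8.05% in all 10 libraries, and replicates of IGROV-1 differ in the balance of the other 2 (purple and red).

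A change in transcript usage was tested with edgeR's diffSpliceDGE and a Simes p per gene. Only IGFBP3 and IGFBP6 passed the filter with 2 or more transcripts, IGFBP6 only through other lines. Neither was called in any of the 6 line comparisons, nor IGFBP3 between instruments. Of 13 tests 0 passed, 0 had an unadjusted p under 0.05, and the lowest was 0.14 (IGFBP3 in OVKATE). IGFBP6 had 0 to 2 counts in each IGROV-1 library. Its 6 tests thus had almost no IGROV-1 share to compare with and could not show a difference. Of all genes tested for usage (4730 in the lines), 4.97% were called for OVKATE, 2.98% for COV362, 2.75% for OVMANA, 2.56% for COV504, 2.07% for SK-OV-3 and 1.35% for OVTOKO, and 5.98% of 2979 genes between instruments.

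IGFBP5, the other carrier that forms the complex with the acid-labile subunit, is known for binding bone and matrix. The gene (ENSG00000115461) lies on the minus strand of chr2:216672105-216695525, and 1 transcript of 6215 nt held all its counts. It had 204 CPM in OVKATE, 23.8 in SK-OV-3, 22.2 in COV504 and 12.5 in COV362. OVMANA, OVTOKO and all 4 IGROV-1 libraries had 0 counts. Thus 4 lines had 32 or more counts and the remaining lines none. OVKATE was at least 318-fold higher than IGROV-1 PromethION, SK-OV-3 at least 37.0-fold, COV504 at least 34.6-fold and COV362 at least 19.5-fold, with the floor of 3 counts taken over both libraries. All of these were called, the weakest being COV362 (edgeR adjusted p = 0.00079). The calls are a description, since IGFBP5 passed the filter only through the lines where it is high. OVKATE also exceeded the next line, SK-OV-3 (log2 difference 3.03, SE 0.27, edgeR adjusted p = 4e-04), while SK-OV-3, COV504 and COV362 were not called different from one to the next.

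IGFBP2 is the second most abundant carrier of serum and carries an integrin-binding motif. It lies 7668 bp from IGFBP5, on the plus strand of chr2:216633395-216664436 (ENSG00000115457). It had 614 CPM in OVKATE, 279 in COV362, 121 in COV504, 14.7 in SK-OV-3, 0.534 in OVMANA and 0 in OVTOKO. IGROV-1 had 90.6 and 78.6 CPM on PromethION and 103 and 96.7 CPM on MinION. OVKATE, COV362 and COV504 were above all 4 IGROV-1 libraries and the other 3 lines below them. OVKATE was 7.26 times higher than IGROV-1 PromethION (84.6 ± 8.45 CPM, SD, n = 2; log2 change 2.56, SE 0.16, edgeR adjusted p = 1.1e-05) and COV362 was 3.30 times higher (log2 change 1.76, SE 0.16, edgeR adjusted p = 0.0001). COV504 was 1.44 times higher and did not pass the test (log2 change 0.44, SE 0.18, edgeR adjusted p = 0.072), though it did with RLE size factors (edgeR adjusted p = 0.042) and with a filter at 10 CPM (edgeR adjusted p = 0.048). SK-OV-3 was 5.76 times lower. OVMANA, with a single count, was 158 times lower with a 95% counting interval of 28.3 to 6269, and OVTOKO was at least 48.8-fold lower. Over the 7 lines the level of IGFBP2 as log2(CPM + 1) had a Pearson r of 0.72 with its neighbour IGFBP5. It had an r of -0.81 with IGFBP7. These describe 7 points, 6 of them single libraries.

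IGFBP4 is a carrier best known for holding IGF back until the protease PAPPA cuts it. The gene (ENSG00000141753, plus strand of chr17:40443461-40457731) had 1 transcript. It had 379 CPM in COV504, 235 in OVMANA, 144 in COV362, 96.4 in OVKATE and 3.55 in SK-OV-3. OVTOKO and the 4 IGROV-1 libraries had 0 counts. Of the 5 lines with counts, 4 thus had 195 counts or more and SK-OV-3 had 7. COV504 was at least 590-fold higher than IGROV-1 PromethION, OVMANA at least 365-fold, COV362 at least 224-fold and OVKATE at least 150-fold. All 4 were called, with edgeR adjusted p of at most 2.2e-05. This is a description, since IGFBP4 passed the filter only through lines where it is high. SK-OV-3 was at least 5.52-fold higher (edgeR adjusted p = 0.0092), and this was not called without IGROV-1 MinION replicate 1 (edgeR adjusted p = 0.052). COV504 and OVMANA were not called different from each other (log2 difference 0.55, SE 0.20, edgeR adjusted p = 0.074), though they were under 1 of 10 alternatives. OVKATE and SK-OV-3 were called different (log2 difference 4.67, SE 0.36, edgeR adjusted p = 0.00022).

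IGFBP1 is a carrier made by liver and by the decidua of the uterus, and is set by insulin. Its gene (ENSG00000146678, plus strand of chr7:45888357-45893668) lies 18576 bp from IGFBP3. OVTOKO had 156 CPM (270 counts) and SK-OV-3 4.05 CPM (8 counts). OVKATE and COV362 had 1 count each, OVMANA and COV504 none, and the IGROV-1 libraries 2, 0, 3 and 3. OVTOKO thus stood alone, above the next line by a log2 difference of 5.55 (SE 0.41, edgeR adjusted p = 9.9e-05). That p is a description, since IGFBP1 passed the filter only through OVTOKO. OVTOKO was 365 times higher than IGROV-1 PromethION, with a 95% counting interval of 99.9 to 3024 because IGROV-1 PromethION had 2 counts in all. Its fitted log2 change of 8.43 was 7.51 without IGROV-1 PromethION replicate 2, and without replicate 1 IGROV-1 PromethION had 0 counts. The call for SK-OV-3 (9.49 times higher, interval 1.89 to 91.4, edgeR adjusted p = 0.038) was lost without IGROV-1 PromethION replicate 2 or MinION replicate 1 (edgeR adjusted p = 0.12 in both), without MinION replicate 2 (0.098), with PromethION libraries only (0.090), with no filter (0.064) and with DESeq2 (0.18). Over the 7 lines IGFBP1 had an r of -0.20 with its neighbour IGFBP3.

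IGFBP6 differs from the other carriers in preferring IGF2 to IGF1. The gene (ENSG00000167779) lies on the plus strand of chr12:53097436-53102345. It had 326 CPM in OVTOKO, 158 in SK-OV-3, 149 in COV504, 88.9 in COV362, 29.2 in OVKATE and 3.21 in OVMANA. The IGROV-1 libraries had 0 and 1 count on PromethION and 2 and 0 counts on MinION. All 6 lines were above all 4 IGROV-1 libraries. The ratio of OVTOKO to IGROV-1 PromethION was 1518, with a 95% counting interval of 272 to 60237, so its size is poorly fixed. The intervals began at 131 for SK-OV-3, 124 for COV504, 73.8 for COV362 and 23.5 for OVKATE, and these 5 lines were called with an edgeR adjusted p of at most 0.00011. Such calls are a description, since IGFBP6 passed the filter only through lines where it is high. Without IGROV-1 PromethION replicate 1 the log2 change was 9.48 in place of 10.35 for OVTOKO and 5.62 in place of 6.49 for OVKATE, and without replicate 2 IGROV-1 PromethION had 0 counts. OVMANA, with 6 counts (ratio 14.9, interval 1.82 to 689, edgeR adjusted p = 0.037), was not called under 6 of 10 alternatives. Among these were the fits without IGROV-1 PromethION replicate 1 (edgeR adjusted p = 0.057), without MinION replicate 1 (0.078) and without MinION replicate 2 (0.065). OVTOKO was above SK-OV-3 by a log2 difference of 1.35 (SE 0.25, edgeR adjusted p = 0.0059, 0.18 with DESeq2), while SK-OV-3 and COV504 differed by -0.06 (SE 0.25) after normalization.

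The exon boundaries inside the 2 IGFBP6 transcripts are the same except at the start of exon 2, where ENST00000301464 has 6 nt more (chr12:53100712-53100717). This junction is shown because it is the only difference that separates the forms inside the gene, with the additional nt in capitals and 20 nt on each side, from GENCODE 29 on GRCh38. After it stands the corresponding junction of IGF1R, where ENST00000268035 has 3 nt at the start of exon 14 (chr15:98929558-98929560) that ENST00000558762 lacks.
IGFBP6 junction of ENST00000301464: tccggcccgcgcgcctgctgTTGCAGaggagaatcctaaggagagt
IGF1R junction of ENST00000268035: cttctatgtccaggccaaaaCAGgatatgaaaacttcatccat
The form with TTGCAG was the common one in IGFBP6. It held 93.1% to 95.7% of the counts in the 5 lines with 59 counts or more, and in OVTOKO the other form held 6.76% of 564 counts (95% Wilson interval 4.95% to 9.11%). The form with CAG held 89.3% to 98.6% of IGF1R counts in the 4 lines with 25 counts or more.

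IGFBP7 gave the highest counts of the 8 genes. It lies on the minus strand of chr4:57030773-57110385 (ENSG00000163453), and ENST00000295666 held at least 99.88% of its counts in each library with 20 counts or more. It had 2792 CPM in OVTOKO, 2661 in SK-OV-3, 2002 in OVMANA, 133 in COV504, 97.6 in COV362 and 19.3 in OVKATE. IGROV-1 had 6.83 and 3.01 CPM on PromethION and 2.45 and 2.16 CPM on MinION. The lines formed 3 levels, a high one of 3 lines, a middle one of COV504 and COV362, and OVKATE and IGROV-1 at the low end. Relative to IGROV-1 PromethION (4.92 ± 2.71 CPM, SD, n = 2), OVTOKO was 567 times, SK-OV-3 541 times and OVMANA 407 times higher (log2 changes 9.21, 8.83 and 8.71, each with SE 0.27). Their edgeR adjusted p was at most 1.2e-06. IGROV-1 PromethION had 23 counts in all, so the 95% counting intervals of these ratios were wide, at 377 to 895, 360 to 853 and 270 to 642. The size also rested on which IGROV-1 library was used: without PromethION replicate 1 the log2 changes were 9.91, 9.53 and 9.41, and without replicate 2 they were 8.74, 8.37 and 8.25, all called. COV504 and COV362 were 27.0 and 19.8 times higher (log2 changes 4.66 and 4.34, both SE 0.29, both called), and their log2 changes were 5.36 and 5.03 without PromethION replicate 1. OVKATE was 3.92 times higher (log2 change 1.66, SE 0.38, edgeR adjusted p = 0.0075), which was 2.36 without PromethION replicate 1 and was not called without IGROV-1 MinION replicate 1 (edgeR adjusted p = 0.059). Within the high level no neighbours were called different (edgeR adjusted p = 0.27 and 0.73). The step from OVMANA to COV504 was (log2 difference 4.05, SE 0.26, edgeR adjusted p = 3.1e-05), as was the step from COV362 to OVKATE (2.68, SE 0.31, edgeR adjusted p = 0.00053).

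IGF1R lies on the plus strand of chr15:98648971-98964530 (ENSG00000140443), and its main transcript of 11803 nt is the longest among the members. It had 48.9 CPM in COV504, 27.4 in COV362, 18.7 in SK-OV-3, 13.4 in OVMANA, 2.97 in OVKATE and 0 in OVTOKO. IGROV-1 had 2.99 and 3.01 CPM on PromethION and 2.45 and 4.33 CPM on MinION. COV504, COV362, SK-OV-3 and OVMANA were above all 4 IGROV-1 libraries, and OVKATE lay among them. COV504 was 16.3 times higher than IGROV-1 PromethION (2.998 ± 0.0118 CPM, SD, n = 2; log2 change 3.93, SE 0.34, edgeR adjusted p = 5.3e-05) and COV362 was 9.15 times higher (3.21, SE 0.36, edgeR adjusted p = 0.00029). SK-OV-3 and OVMANA were 6.25 and 4.46 times higher and called by edgeR (adjusted p = 0.0022 and 0.006) but not by DESeq2 (adjusted p = 0.15 and 0.22). OVTOKO, at 0 of 1729782 counts, was at least 1.73-fold lower (edgeR adjusted p = 0.037). That call was lost without IGROV-1 MinION replicate 1 (edgeR adjusted p = 0.063) or replicate 2 (0.059), with PromethION libraries only (0.055), with no filter (0.056) and with DESeq2 (0.22). Among COV504, COV362, SK-OV-3 and OVMANA no line was called different from the next in order. IGF1R passed the filter only through these lines, so its calls are a description.

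Over all 8 genes, 22 of the 48 pairs of lines next to each other in a gene's order were called, from 1 of 6 for IGFBP1 and IGF1R to 4 of 6 for IGFBP2, IGFBP3 and IGFBP6. The count was 13 without IGROV-1 MinION replicate 1 and 12 with DESeq2, and 11 pairs were called under all 10 alternatives. Over all 21 pairs of lines, 35.4% of gene tests were called. These include pairs far apart in a gene's order, so they are not a like background for the 48. Some of the 48, such as OVMANA and OVTOKO for IGFBP5, had 0 counts in both lines and could not be called.

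The share of each carrier among the counts of the 7 binding proteins was also taken, from plain counts and from counts divided by transcript length. Summed over the 7 genes, OVTOKO had 3329 CPM, SK-OV-3 2905, OVMANA 2310, OVKATE 1340, COV504 873, COV362 641 and the IGROV-1 libraries 277 to 313. IGFBP7 held 91.6% of the counts in SK-OV-3, 86.7% in OVMANA and 83.9% in OVTOKO. IGFBP2 led in OVKATE (45.8%, with IGFBP3 at 28.1% and IGFBP5 at 15.2%) and in COV362 (43.5%, with IGFBP4 at 22.4%). IGFBP4 led in COV504 (43.4%, with IGFBP6 at 17.0%). In the IGROV-1 libraries IGFBP3 held 64.6% to 72.2% and IGFBP2 26.6% to 33.5%. After counts were divided by transcript length the leading gene was the same in 10 of 10 libraries. Per length, IGFBP5 fell to 4.68% in OVKATE, and IGFBP3 held 52.4% to 61.2% in IGROV-1.

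**Figure D4:**
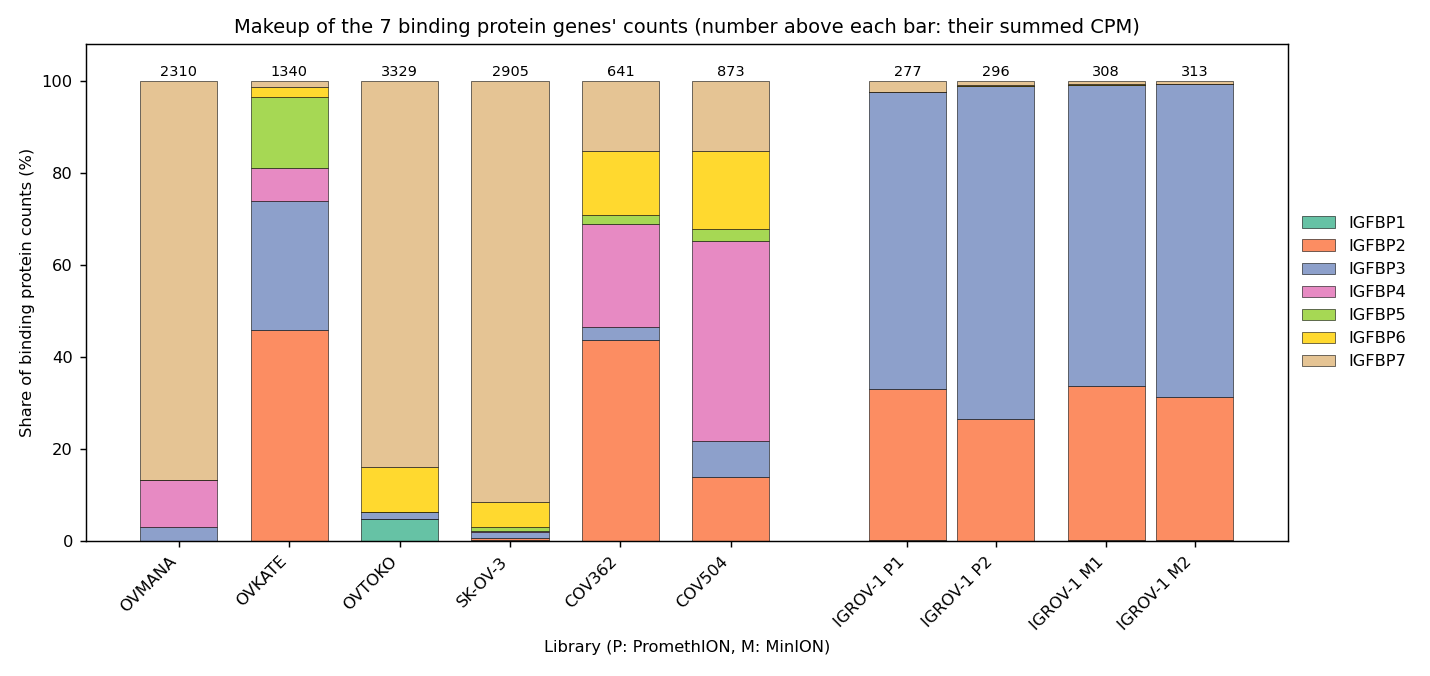
Share of each gene among the counts of the 7 binding proteins in each library in percent, with their summed CPM above each bar (P and M are PromethION and MinION libraries of IGROV-1). IGFBP7 fills 83.9% to 91.6% of the bars of OVMANA, OVTOKO and SK-OV-3, and IGFBP3 64.6% to 72.2% of the 4 IGROV-1 bars.

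The instruments were compared within IGROV-1. Only IGFBP2 and IGFBP3 had enough counts to be tested on the 4 libraries. IGFBP2 had 99.9 ± 4.52 CPM on MinION and 84.6 ± 8.45 on PromethION (SD, n = 2 each; log2 difference 0.20, SE 0.14, edgeR adjusted p = 0.52). IGFBP3 had 207 ± 8.19 and 196 ± 24.4 CPM (log2 difference 0.04, SE 0.13, edgeR adjusted p = 0.92). By edgeR 0 of these 2 were called, by DESeq2 also 0, and 0 of the 2 had an unadjusted p under 0.05, against 0.817% of 10041 genes called. IGFBP7, below the filter there, was 2.13 times lower on MinION, at 2.31 ± 0.207 against 4.92 ± 2.71 CPM (SD, n = 2 each), with a 95% counting interval of 1.07 to 4.30. In the fit over all 10 libraries its log2 difference was -1.10 (SE 0.44, unadjusted p = 0.036, edgeR adjusted p = 0.36), which was not called. The miss does not show that the instruments give equal levels.

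The other genes of the IGF system were taken as a list of 25 names, which are 24 genes in the files because IGF2 and INS share a joined gene. Of these, 17 reached 10 CPM in some library and were in the line fits. The other 7 stayed under 2 CPM everywhere, among them the proteases PAPPA and PAPPA2 and the serum subunit IGFALS. IGF1, the joined IGF2 gene, ADAM12 and STC1 were at 0 to 0.43 CPM in IGROV-1 PromethION. They passed the filter only through other lines, where they are high, and could only be called higher. The counts and medians over this list are therefore a description. Relative to IGROV-1, OVKATE had 5 called higher and 6 lower, SK-OV-3 had 6 and 4, COV362 had 4 and 5, OVTOKO had 3 and 5, COV504 had 4 and 3, and OVMANA had 4 and 2. The shares of all genes given above for each line are the background of these counts. With genes at 0 set to their bound, the median log2 change was -0.36 (15 genes), 0.21 (15), -0.20 (14), 0.19 (14), 0.29 (15) and -0.24 (14) in this order, against -0.01 to 0.04 over all genes.

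OVKATE, the line with the highest IGFBP2, IGFBP3 and IGFBP5, also had the highest levels of ligand transcripts. The joined IGF2 gene had 867 CPM there, all of it in IGF2 transcripts and 0 in INS, against 18.7 CPM in COV504 and 1.73 CPM or less in the other 8 libraries. IGF1 had 19.3 CPM in OVKATE and at most 1.60 CPM elsewhere. IGF2R, which clears IGF2 from the cell surface, ranged from 22.3 CPM in OVKATE to 132 CPM in SK-OV-3. INSR, the insulin receptor, had 15.2 CPM in SK-OV-3, 12.4 in OVKATE and 15.4 and 10.3 in IGROV-1 PromethION, and 0 in OVTOKO, the line in which IGF1R was also at 0.

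Among the genes that act on the carriers, HTRA1, a secreted protease that can cut IGF-binding proteins, had 241 CPM in SK-OV-3 and 1.73 to 56.1 CPM elsewhere (log2 change from IGROV-1 5.19, SE 0.23, edgeR adjusted p = 3e-06). It was called higher in 5 lines, all but OVTOKO. STC1, an inhibitor of PAPPA, had 52.6 CPM in OVTOKO, against 49.1 CPM for SK-OV-3 and 1 count over both IGROV-1 PromethION libraries. IGF2BP1, an RNA-binding protein of IGF2 messages, had 63.2 and 80.3 CPM in IGROV-1 PromethION, 52.9 in OVMANA and 0 in OVKATE, SK-OV-3 and COV504. It was called lower in 5 lines, and OVMANA was the exception (log2 change -0.38, SE 0.22, edgeR adjusted p = 0.22).

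**Figure D5:**
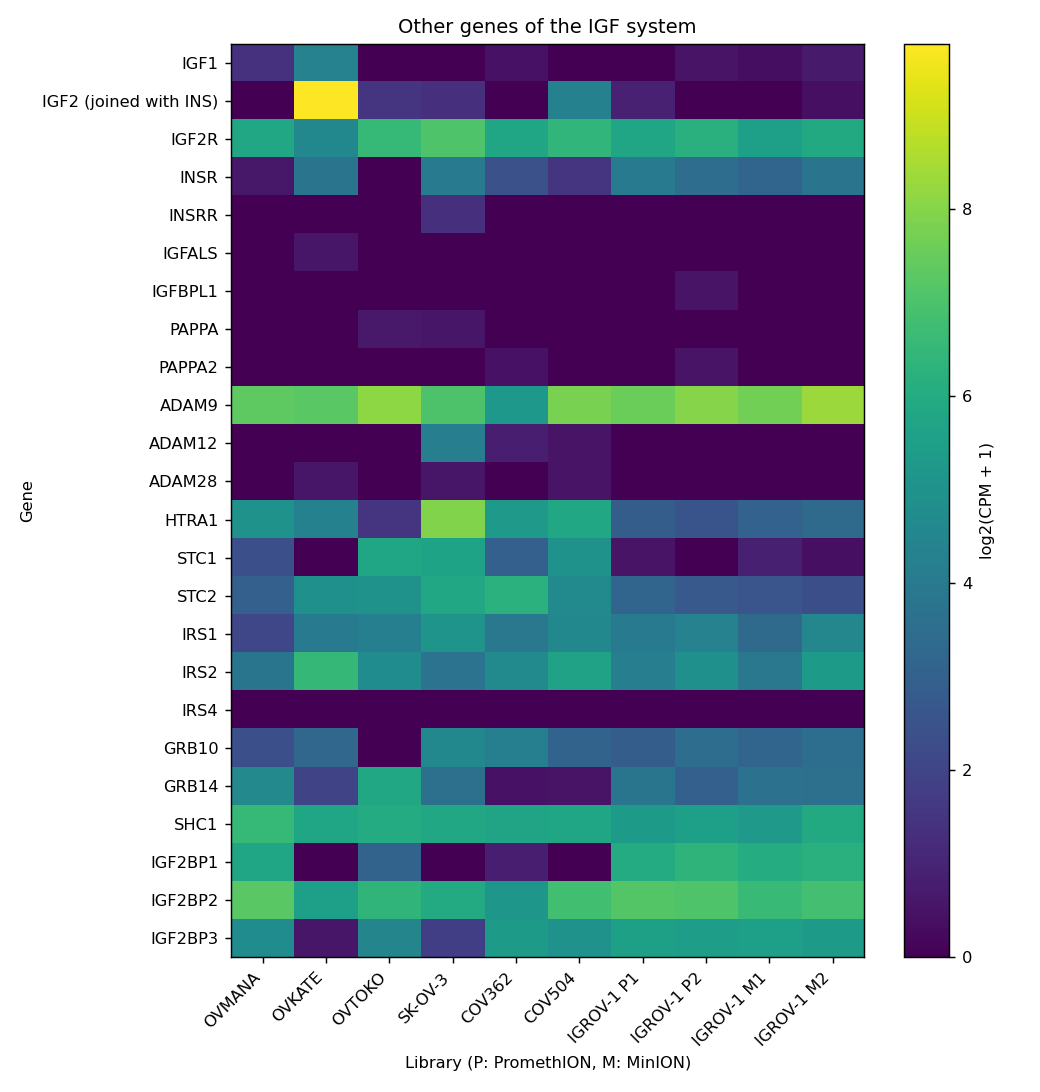
Levels of the other genes of the IGF system, as log2(CPM + 1), in the 10 libraries (P and M are PromethION and MinION libraries of IGROV-1). IGF2, joined with INS, is bright in OVKATE only (867 CPM), and IGF2BP1 is dark in OVKATE, SK-OV-3 and COV504, where it had 0 counts.

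For each member the 3 protein-coding genes with the most similar pattern over the 7 lines on PromethION were taken from 8288 genes. The measure was Pearson r of log2(CPM + 1), which compares the pattern over lines and not the level itself. They are a description of 7 points that share library and depth. IGFBP7 was nearest to MGLL (r = 0.98), NNMT (0.97) and APOL1 (0.97). IGFBP6 was nearest to AXL (0.97), PRKD1 (0.97) and PKIA (0.96). IGFBP1 was nearest to ITGAD (0.98), GAL3ST1 (0.97) and ABCB1 (0.97), each of them at 73.4 CPM or more in OVTOKO and 1.28 CPM or less elsewhere. IGFBP2 was nearest to ASPM, MRPL50 and IFRD1 (r from 0.98 to 1.00), and IGFBP3 to ATP6V1C1, TET2 and E2F6 (0.97 to 0.98). IGFBP4 was nearest to NELFCD, MMGT1 and CMTM6 (all 0.98), IGFBP5 to AES, COPS8 and OXCT1 (0.98 to 0.99) and IGF1R to KIF9, SNAP47 and CMTR1 (0.95 to 0.96). Between members the highest r were 0.72 (IGFBP2 and IGFBP5) and 0.70 (IGFBP4 and IGF1R).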

How the data were processed

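The deposited tables give, for each of 10 nanopore libraries, an estimated count per transcript, which the authors derived from reads. The submitters' processing notes name minimap2 2.24-r1122 and GRCh38. For the quantifier, annotation release, read filters and use of strand, the sources used here give nothing. The TPM that the authors deposited equals CPM, the count scaled by the library total, to within 5.6e-11 in every library, so it is not divided by length.

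Counts were summed per gene, rounded (at most 0.0258% of a library was lost) and tested with edgeR 4.0.16 in R 4.3.3: TMM normalization, filterByExpr by group, the quasi-likelihood test, two-sided, Benjamini-Hochberg adjustment over all genes, calls at an adjusted p under 0.05. Standard errors come from the change and the F statistic. The biological coefficient of variation was 11.7%. Lines were fitted over all 10 libraries and instruments over the 4 of IGROV-1. Transcript usage was tested with diffSpliceDGE. Replicates differed by more than counting noise (chi-square per degree of freedom 4.36 for PromethION and 6.73 for MinION) and were kept apart. Intervals are 95% Wilson or exact counting intervals, and folds against 0 use a floor of 3 counts per group. The tests were also run on simulated data, in which all libraries varied alike and genes with few expected counts were left out. That run could not check genes near 0 or the assumed spread of lone libraries. Alternatives were RLE factors, filters, PromethION only, no mitochondrial genes, each IGROV-1 library left out, a replicate block, DESeq2 1.42.0, length scaling and a 5-count detection minimum. The members and lists were chosen with earlier results of these data known. Text names all 8 members, their transcripts with 10 CPM or 20% of a gene's counts, list genes with 10 CPM, and the 3 genes of most similar pattern. Genes and coordinates were matched to GENCODE 29.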

Additional observations from a re-analysis of the deposited data

How the results depend on the processing

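Of 432 log2 changes recomputed for members under the alternatives, 405 kept their direction and their side of the threshold, 24 kept the direction and were no longer called, 2 became called and 1 changed sign. The one that changed sign was IGFBP3 between instruments, which had a log2 difference of 0.04 and ranged from -0.09 (without IGROV-1 PromethION replicate 1) to 0.17 (without PromethION replicate 2) when 1 library was left out, not called in any. The number of pairs of neighbouring lines called, 22 of 48, was 13 to 27 when 1 IGROV-1 library was left out, with 13 without IGROV-1 MinION replicate 1, and 12 with DESeq2. The number of members called per line stayed within 1.5 times of the reported one under all alternatives, at 4 to 6 in OVMANA and OVKATE, 5 to 6 in OVTOKO, 6 to 8 in SK-OV-3, 7 in COV362 and 6 to 7 in COV504. Dividing counts by length moved 33 of 70 carrier shares beyond their intervals. These shifts are the arithmetic of the division, since the main transcripts ran from 1169 nt (IGFBP6) to 6215 nt (IGFBP5). A detection minimum of 5 counts left 13 of 18 transcripts detected, as did 1 count. The labels number the IGROV-1 replicates alike on both instruments but do not say that a number marks a shared culture or day. Same-numbered libraries deviated together (correlation 0.37 over 10041 genes), with only 2 pairs to judge by, and with a replicate block 0 of the 2 tested members were called, as without it. The block moved the calls between instruments from 82 to 1979 of 10041 genes, and among other IGF system genes from 0 to 2. Depth limits IGFBP1, IGFBP6, IGFBP7 and IGF1R in IGROV-1, where they had 1 to 23 counts over both PromethION libraries.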
